A study of Mus musculus with 18 samples.

Results

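The set described here comprises 9 genes: the dual oxidases Duox2 and Duox1, their maturation factors Duoxa2 and Duoxa1, the NADPH oxidase Nox1 with its organizer Noxo1 and activator Noxa1, the inducible nitric oxide synthase Nos2, and the glutathione peroxidase Gpx2. They were taken by gene symbol from the 54532 genes counted, so the set is 9 of 54532, and all 9 were among the 17692 genes that passed the filter on low counts. The set was chosen with earlier results of these data known. Polyadenylated RNA was sequenced from epithelial cells that had been taken off fresh mouse colon with micro forceps in 30 mM EDTA, as 18 libraries with 3 in each of 6 groups. The 3 genotypes, each without treatment, were sampled in distal and in proximal colon: wild type (BL6), Rab11-FIP1 KO (here FIP1 knockout) and Rab11-FIP2 KO (here FIP2 knockout). Both deleted proteins are adaptors that tie the small GTPase Rab11 to recycling endosomes. The labels give neither the age of the mice, nor how each gene was disrupted, nor which mouse each library is from, so p-values may measure technical spread only.

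Dual oxidases sit in the apical membrane of gut epithelium and release hydrogen peroxide towards the lumen, but they leave the endoplasmic reticulum only with their maturation factors. Nox1 makes superoxide in colon epithelium once Noxo1, Noxa1 and a Rac GTPase have assembled with it and the membrane subunit Cyba. Nos2 makes nitric oxide from arginine, and Gpx2, an enzyme of the gut epithelium, reduces hydroperoxides with glutathione. Duox2 and Nos2 are widely used as readouts of inflammatory and microbial signals in the intestine.

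The 4 dual oxidase genes lie side by side on chromosome 2 (GRCm38, all coordinates as deposited). Duox2 runs on the minus strand from 122279247 to 122298165, Duoxa2 on the plus strand from 122298900 to 122302885, Duoxa1 on the minus strand from 122302191 to 122313730, and Duox1 on the plus strand from 122315672 to 122347972. Duox2 and Duoxa2 are thus arranged head to head, as are Duoxa1 and Duox1. Noxa1 lies elsewhere on chromosome 2 (25085667 to 25095149, minus strand), Nox1 on chromosome X (134086421 to 134221956, minus), Noxo1 on chromosome 17 (24696234 to 24700529, plus), Nos2 on chromosome 11 (78920787 to 78960254, plus) and Gpx2 on chromosome 12 (76792333 to 76795554, minus). Promoter sequences from RefSeq (GRCm38.p6) were matched for 8 of the 9 genes, all but Nos2. The 250 bases before the annotated start are shown for Duoxa2 and Nox1, the genes for which FIP2 knockout stood higher than FIP1 knockout without overlap in both segments. The Duoxa2 window is chr2:122298650-122298899 on the plus strand, in the gap between the starts of Duox2 and Duoxa2. The Nox1 window is chrX:134111855-134112104 on the minus strand, which lies inside the deposited gene span. Both are written 5′ to 3′ in lower case, with motif matches in capitals.
Duoxa2: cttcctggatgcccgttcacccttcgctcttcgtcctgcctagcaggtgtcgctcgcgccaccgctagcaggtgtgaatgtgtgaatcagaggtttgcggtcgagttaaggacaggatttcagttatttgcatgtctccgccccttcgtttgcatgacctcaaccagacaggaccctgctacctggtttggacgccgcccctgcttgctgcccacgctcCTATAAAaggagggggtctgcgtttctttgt
Nox1: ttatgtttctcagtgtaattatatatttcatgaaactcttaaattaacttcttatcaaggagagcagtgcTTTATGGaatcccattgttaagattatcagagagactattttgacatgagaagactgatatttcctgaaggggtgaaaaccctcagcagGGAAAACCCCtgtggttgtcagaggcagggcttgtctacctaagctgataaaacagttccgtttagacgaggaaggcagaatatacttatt

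The capitals in the Duoxa2 window hold a TATA box (TATAAA, first base at position -30, counting -1 as the base before the start), which overlaps a match to the CDX element (TTTATNG) on the other strand at -31. In the Nox1 window they mark a CDX element at -180 and an NF-kB element at -91 on the reverse strand. In all, 6 motifs were searched on both strands of the 250 bases. A TATA box was present in 12.4% of 32851 promoters, the CDX element in 9.81%, the NF-kB element in 3.90% and the GATA element (AGATAA) in 9.99%. Gpx2 held a CDX element at -129, and Noxa1 held an NF-kB element at -249 and a GATA element at -73. The GAS element (TTCNNNGAA, 7.02% of promoters) and the interferon response element (2.98%) had no match in the windows of the 8 genes, and none of the 6 motifs matched in those of Duox2, Duox1, Duoxa1 and Noxo1. A match says only that the letters are present.

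Library totals ran from 11193308 to 22062300 counts. The targeted genes were lower but still counted, and the deleted stretch is not given: Rab11fip1 was at 48.5 ± 2.10 CPM (counts scaled to the library total after TMM adjustment; SD, n = 3) in FIP1 knockout distal colon against 116 ± 20.5 in wild type, and Rab11fip2 at 3.52 ± 0.914 against 7.38 ± 0.0842 in FIP2 knockout distal colon. The 11 epithelial markers (Epcam, Cdh1, Krt8 and others) were all present. Their summed levels were 15157 to 23732 CPM in distal and 34965 to 51433 CPM in proximal colon. Other cell types were also represented. The 11 macrophage and monocyte markers summed to 35.7 to 54.4 CPM in wild-type distal, 81.7 to 107 in FIP1 knockout distal and 128 to 263 in FIP2 knockout distal colon. In proximal colon they summed to 26.2 to 82.7, 58.4 to 62.1 and 75.0 to 175. Mitochondrially encoded genes took 18.1% to 32.3% of counts in wild type and 11.2% to 20.1% in the knockouts. In wild-type proximal library 2 the 8 neuron markers reached 94.7 CPM, against 17.7 and 22.9 in the other wild-type proximal libraries.

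Of the set, 5 genes, Duox2, Duoxa2, Duoxa1, Nox1 and Nos2, were called higher in both knockouts and in both segments. For Duoxa1, reads of exon bases shared with Duoxa2 cannot be told apart from a rise of the gene itself. None of the 9 was called lower than wild type. Nos2 had the largest fold of the 9 in all 4 comparisons. Noxo1 and Duox1 were not called in any of the 4, and Gpx2 and Noxa1 were called in 1 each. A call means an adjusted p under 0.05 in edgeR's quasi-likelihood test over 17692 genes with the Benjamini-Hochberg method. In FIP1 knockout 5 of the 9 genes were called higher in distal colon, where 8.84% of all tested genes were called higher, 7.47% lower and 16.3% in either direction, and 5 in proximal colon (6.7% higher, 6.89% lower, 13.6% either way). In FIP2 knockout 6 were called higher in distal colon (9.13% higher, 9.38% lower, 18.5% either way) and 6 in proximal colon (7.6%, 7.07% and 14.7%). The 3 knockout libraries did not overlap the 3 wild-type libraries for 5 and 8 of the 9 genes in FIP1 knockout distal and proximal colon (35.8% and 26.6% of all genes) and for 7 and 8 in FIP2 knockout (37.6% and 29.3%). Between the knockouts, 5 and 3 of the 9 did not overlap in distal and proximal colon (22.7% and 27.1%). The median log2 fold change of the 9 genes was 1.58 and 1.82 for FIP1 knockout in distal and proximal colon and 1.51 and 1.87 for FIP2 knockout, beside medians over all genes between -0.02 and 0. The median of 1.87 is the value of Duox1, a gene with few counts that was not called. The FIP1 and FIP2 comparisons of a segment share their 3 wild-type libraries, so they are not independent of each other. Because the members were chosen with earlier results of these data known, the shares of all genes are no independent yardstick for them.

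**Figure D1:**
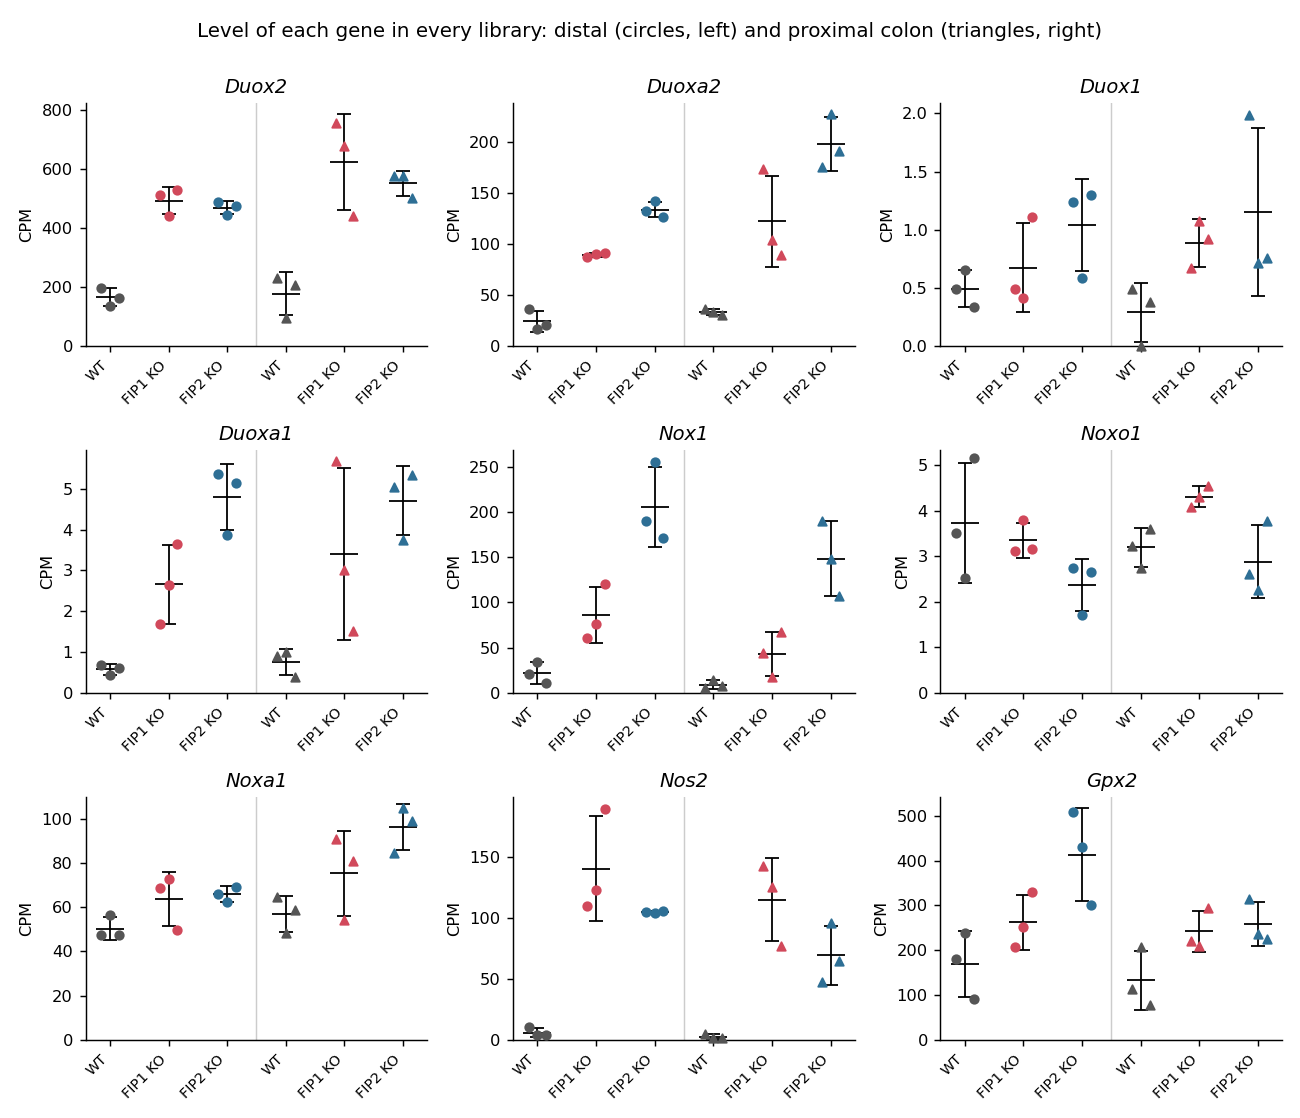
CPM of each of the 9 genes in the 18 libraries, with distal colon on the left and proximal colon on the right of each panel; bars are mean ± SD over 3 libraries. Duox2, Duoxa2, Duoxa1, Nox1 and Nos2 have every knockout library above every wild-type library of the same segment, whereas Noxo1 stays between 1.71 and 5.15 CPM throughout.

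Duox2, the peroxide-producing enzyme, was at 195, 136 and 163 CPM in wild-type distal colon, 510.3, 438 and 526 in FIP1 knockout and 487, 442 and 472 in FIP2 knockout. In proximal colon it was at 230.3, 92.4 and 206 in wild type, 753, 676 and 440.4 in FIP1 knockout, and 574, 575 and 501 in FIP2 knockout. All 12 knockout libraries lay above all 6 wild-type libraries, and the lowest value belonged to wild-type proximal library 2, the one with the highest neuron marker sum of its group. The log2 fold changes were 1.58 ± 0.26 (SE, edgeR adjusted p = 0.000401) in FIP1 knockout distal, 1.82 ± 0.26 (0.000126) in FIP1 knockout proximal, 1.51 ± 0.26 (0.000607) in FIP2 knockout distal and 1.64 ± 0.26 (0.000439) in FIP2 knockout proximal colon. Without wild-type proximal library 2 the proximal values were the lowest of those with 1 library left out, 1.52 and 1.34, and both stayed called. The knockouts themselves overlapped in both segments, with FIP1 minus FIP2 differences of 0.07 ± 0.25 and 0.18 ± 0.26 (adjusted p = 0.932 and 0.757).

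Duoxa2, the partner that brings Duox2 to the membrane, was at 35.7, 16.2 and 20.5 CPM in wild-type distal colon, 87.1, 90.02 and 90.5 in FIP1 knockout, and 132, 142 and 127 in FIP2 knockout. Proximal values were 35.8, 33.4 and 29.7 in wild type, 173, 104 and 89.3 in FIP1 knockout, and 175, 227 and 192 in FIP2 knockout. The 3 genotypes were separated in this order in both segments, although FIP1 knockout proximal library 1 came close to the lowest FIP2 knockout library. The log2 fold changes against wild type were 1.88 ± 0.25 (edgeR adjusted p = 4.74e-05) and 1.89 ± 0.25 (4.93e-05) in FIP1 knockout distal and proximal colon, and 2.47 ± 0.25 (2.17e-06) and 2.59 ± 0.26 (2.5e-06) in FIP2 knockout. The direct FIP1 against FIP2 differences of Duoxa2, -0.58 ± 0.24 in distal and -0.70 ± 0.24 in proximal colon, were not called (adjusted p = 0.253 and 0.121).

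Duoxa2 and Duox2 did not keep the same proportion in every group. On the FPKM scale (counts divided by the library total and by a gene length, as deposited by the authors), Duoxa2 stood at 0.268 to 0.414 of Duox2 in wild-type distal, 0.386 to 0.464 in FIP1 knockout distal and 0.606 to 0.725 in FIP2 knockout distal colon. In proximal colon the ratio was 0.346 to 0.520 in FIP1 knockout and 0.689 to 0.892 in FIP2 knockout. The FIP2 knockout ranges did not overlap those of FIP1 knockout in either segment. Wild-type proximal colon spanned 0.326 to 0.817, with its highest value in library 2, where Duox2 was low. The size of the ratio depends on the lengths used: with the deposited gene lengths it was 1.08 to 1.29 in FIP2 knockout distal and 1.23 to 1.59 in FIP2 knockout proximal colon, above 1 rather than below, while a fixed length leaves the order of the libraries as it is. No test of these ratios was made.

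Duox1 was nearly absent. It was at 0.492 ± 0.157 CPM in wild-type distal and 0.287 ± 0.254 in wild-type proximal colon, the latter with 0 counts in library 2 and 11 counts in all, and the knockout means ran from 0.672 to 1.15. The libraries overlapped in distal colon and not in proximal colon, but none of the 4 knockout comparisons was called; the largest, 1.87 ± 0.69 in FIP2 knockout proximal colon, had an adjusted p of 0.0762. Both proximal comparisons passed the 0.05 threshold in edgeR's test before adjustment over the 17692 genes and not after it. The distal comparisons passed it neither way. Counts were few, at 11 to 60 per group, so the size of the change is uncertain.

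Duoxa1, the maturation factor paired with Duox1, was low in wild type, at 0.676, 0.433 and 0.602 CPM in distal and 0.889, 0.989 and 0.375 in proximal colon. It was at 1.69, 2.64 and 3.64 in FIP1 knockout distal, 5.68, 3.01 and 1.53 in FIP1 knockout proximal, 5.37, 3.86 and 5.14 in FIP2 knockout distal, and 5.04, 3.75 and 5.35 in FIP2 knockout proximal colon. Every knockout library lay above every wild-type library, with the widest spread in FIP1 knockout proximal colon. The log2 fold changes were 2.19 ± 0.48 (edgeR adjusted p = 0.0038) and 2.19 ± 0.48 (0.00457) in FIP1 knockout distal and proximal colon, and 3.04 ± 0.47 (0.000216) and 2.67 ± 0.47 (0.00108) in FIP2 knockout. The last exons of Duoxa1 and Duoxa2 converge and share 682 bases (chromosome 2, 122302204 to 122302885; GENCODE M21), and the strand of the libraries is not given in the sources used here. Duoxa1 counts were 1.26% to 4.07% of the Duoxa2 counts in each of the 18 libraries (median 2.84%), so reads of the shared stretch cannot be told apart from a rise of Duoxa1 itself.

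**Figure D2:**
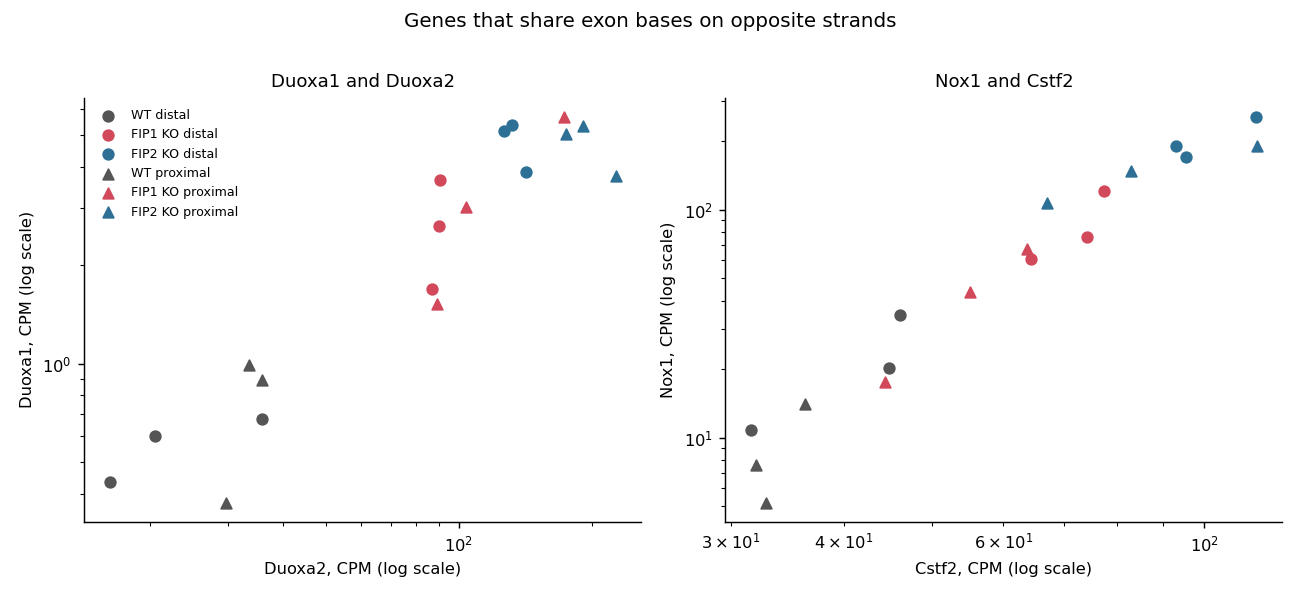
Left, Duoxa1 against Duoxa2, and right, Nox1 against Cstf2, in CPM on log axes, 1 point per library (18 in each panel), coloured by genotype with circles for distal and triangles for proximal colon. Duoxa1 counts stay at 1.26% to 4.07% of Duoxa2 counts, while Nox1 runs from 15.8% to 224% of Cstf2 counts.

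Nox1, the catalytic subunit of the colonic superoxide-producing oxidase, separated the knockouts most. It was at 20.2, 34.5 and 10.8 CPM in wild-type distal colon, 61.0, 76.3 and 121 in FIP1 knockout, and 190.1, 256 and 171 in FIP2 knockout. In proximal colon it was at 5.17, 14.1 and 7.57 in wild type, 43.8, 17.5 and 67.1 in FIP1 knockout, and 191, 148 and 107 in FIP2 knockout. The order wild type, FIP1 knockout, FIP2 knockout held without overlap in both segments, with the closest approach between wild type and FIP1 knockout in proximal colon.

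The log2 fold changes of Nox1 against wild type were 1.98 ± 0.44 (edgeR adjusted p = 0.00473) and 2.29 ± 0.47 (0.00285) in FIP1 knockout distal and proximal colon, and 3.24 ± 0.46 (9.52e-05) and 4.08 ± 0.49 (2.65e-05) in FIP2 knockout. Between the knockouts, Nox1 was lower in FIP1 than in FIP2 knockout in proximal colon by -1.79 ± 0.44 (adjusted p = 0.0321), the only one of the 9 genes called there (2.75% of all genes were called, 1.42% lower). That call was lost without FIP1 knockout proximal library 1 or 2 (-1.80 and -1.42, adjusted p = 0.098 and 0.141) or FIP2 knockout proximal library 1 or 2 (-1.56 and -1.79, 0.111 and 0.0785), and under limma on log2(FPKM + 0.1) or without its filter on low values (-1.95 and -1.91, 0.0602 and 0.112). In distal colon the difference was -1.26 ± 0.43 (adjusted p = 0.145), and none of the 9 genes was called by edgeR (1.86% of all genes) or DESeq2, with 3 at an unadjusted p under 0.05 (Nox1, Duoxa2 and Duoxa1).

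The Nox1 gene model shares 399 exon bases at its 3′ end with Cstf2, which codes for a cleavage stimulation factor of mRNA 3′ ends and lies on the opposite strand (chromosome X, 134086421 to 134086819). Cstf2 also rose, by 0.82 ± 0.19 and 0.69 ± 0.19 in FIP1 knockout distal and proximal colon and by 1.30 ± 0.19 and 1.39 ± 0.19 in FIP2 knockout (edgeR adjusted p between 0.000126 and 0.0212). The call of Cstf2 in FIP1 knockout proximal colon was lost without FIP1 knockout library 1 or 3 or wild-type library 1 or 3 of that segment (0.56 to 0.71, adjusted p between 0.0554 and 0.106). In distal colon Nox1 counts were 34.1% to 74.7% of Cstf2 counts in wild type, 94.8% to 156% in FIP1 knockout and 180% to 224% in FIP2 knockout. In proximal colon they were 15.8% to 38.8%, 39.5% to 105% and 160.2% to 179%. How far reads of the shared bases moved either value was not tested.

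Of the partners of Nox1, Noxo1 was not called and Noxa1 was called once. Noxo1, the organizer that holds the Nox1 complex at the membrane, was at 3.50, 2.52 and 5.15 CPM in wild-type distal, 3.11, 3.79 and 3.15 in FIP1 knockout distal, and 2.74, 1.71 and 2.66 in FIP2 knockout distal colon. Proximal values were 3.23, 2.75 and 3.60 in wild type, 4.08, 4.30 and 4.53 in FIP1 knockout, and 2.60, 2.27 and 3.78 in FIP2 knockout. Wild type overlapped both knockouts in distal colon and FIP2 knockout in proximal colon, and no comparison was called (log2 fold changes of -0.16, 0.42, -0.66 and -0.15, adjusted p between 0.134 and 0.789). Of its 3013 exon bases, 2122 are shared with Tbl3 on the other strand, and Tbl3, a nucleolar protein of ribosome assembly, was not called in any of the 4 comparisons either. FIP1 knockout libraries lay above FIP2 knockout libraries in both segments, with differences of 0.50 ± 0.30 and 0.57 ± 0.30 that were not called (0.474 and 0.313). Noxo1 stood at 0.109 to 0.710 of Nox1 in FPKM in wild-type distal colon and at 0.00991 to 0.0230 in FIP2 knockout distal colon. With the deposited gene lengths these ratios were 0.0804 to 0.525 and 0.00732 to 0.0170. How far reads of the bases shared with Tbl3 moved the Noxo1 values was not tested.

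Noxa1, the activator, was at 47.3, 56.4 and 47.4 CPM in wild-type distal, 68.6, 73.0 and 49.6 in FIP1 knockout distal, and 66.2, 62.5 and 69.4 in FIP2 knockout distal colon. In proximal colon it was at 64.5, 48.3 and 58.6 in wild type, 90.8, 54.1 and 81.1 in FIP1 knockout, and 84.8, 105 and 99.3 in FIP2 knockout. FIP2 knockout lay above wild type without overlap in both segments, while 1 FIP1 knockout library in each segment fell among the wild-type values. The rise was called in FIP2 knockout proximal colon (0.75 ± 0.18, edgeR adjusted p = 0.0103) and not in FIP2 knockout distal (0.39 ± 0.18, 0.146), FIP1 knockout distal (0.34 ± 0.18, 0.231) or FIP1 knockout proximal colon (0.40 ± 0.18, 0.171), although the last passed without FIP1 knockout proximal library 2 (0.60, 0.0339). Noxa1 shares 50 exon bases with Entpd8, an ectonucleotidase gene that fell by 0.90 in the comparison where Noxa1 was called (adjusted p = 0.0103), a call lost without FIP2 knockout proximal library 1 or wild-type proximal library 3 (-0.77 and -0.78, 0.0576 and 0.051). In FPKM, Noxa1 exceeded Nox1 in every wild-type library (ratio 1.45 to 11.05) and was below it in all 6 FIP2 knockout libraries (0.216 to 0.818), but with the deposited gene lengths the ratio was 0.499 to 0.829 in FIP2 knockout distal and 0.909 to 1.89 in FIP2 knockout proximal colon, so the order of the pair there depends on the length.

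Nos2 changed most. It was at 10.3, 3.82 and 3.48 CPM in wild-type distal colon, 109.6, 123 and 189.8 in FIP1 knockout and 105, 104 and 106 in FIP2 knockout. Proximal values were 4.85, 1.54 and 1.05 in wild type, 143, 126 and 76.9 in FIP1 knockout, and 47.7, 95.8 and 64.9 in FIP2 knockout. Every knockout library lay above every wild-type library, and in each segment wild-type library 1 was the highest of its group. The log2 fold changes were 4.57 ± 0.45 (edgeR adjusted p = 1.47e-06) and 5.51 ± 0.49 (5.32e-07) in FIP1 knockout distal and proximal colon, and 4.15 ± 0.44 (3.49e-06) and 4.79 ± 0.49 (3.27e-06) in FIP2 knockout. Without wild-type library 1 of the segment these values were 5.25, 6.51, 4.83 and 5.78. FIP1 knockout libraries lay above FIP2 knockout in distal colon and overlapped in proximal colon, with differences of 0.42 ± 0.38 and 0.73 ± 0.38 that were not called (adjusted p = 0.664 and 0.318).

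Nos2 is also made by activated macrophages. In FIP1 knockout 3 of 10 tested macrophage and monocyte markers were called higher in distal and 1 in proximal colon, and 2 and 2 in FIP2 knockout. Of all genes, 8.84%, 6.7%, 9.13% and 7.6% were called higher in these 4 comparisons. Of the 11 epithelial markers, 2, 0, 4 and 0 were called higher in the same order, and 0, 0, 1 and 0 lower. In distal colon both knockouts lay above wild type in macrophage sum and in Nos2. Between them, the macrophage sums were higher in FIP2 knockout and Nos2 in FIP1 knockout. That difference in Nos2 was not called (0.42 ± 0.38, edgeR adjusted p = 0.664). In proximal colon the macrophage sums of both knockouts overlapped those of wild type, where library 2 reached 82.7 CPM. Nos2 of the knockouts did not overlap wild type there. The 9 neutrophil markers summed to 77.4 to 171 CPM in wild-type distal, 205 to 241 in FIP1 knockout distal and 231 to 288 in FIP2 knockout distal colon, and to 0.450 to 2.86, 15.4 to 16.6 and 11.7 to 23.8 in proximal colon. Most of the distal sum was Ly6g, at a mean of 127 CPM in wild type, and most of the knockout proximal sums was Ly6g and Ltf. Elane and Camp had no higher mean in any knockout group than in wild type of the segment. Of 3 tested markers 2, 2, 2 and 3 were called higher in the 4 comparisons. S100a8, S100a9, Cxcr2 and Retnlg were at 0 in wild-type distal colon, and S100a8 reached means of 1.68 and 1.13 CPM in FIP1 and FIP2 knockout distal colon. T cell markers summed to 2.83 to 12.3 CPM in wild type and 17.5 to 121 in the knockouts, with 5 of 9 called higher in each comparison. Whether these cells account for part of the rise of Nos2 or of the other 8 genes was not tested, and in bulk libraries more cells of a type and more RNA per cell cannot be told apart.

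Gpx2, the peroxidase of the set, was at 180.4, 238 and 91.5 CPM in wild-type distal, 208, 251 and 329 in FIP1 knockout distal, and 510.0, 430.0 and 302 in FIP2 knockout distal colon. In proximal colon it was at 113, 206 and 77.2 in wild type, 222, 210.5 and 295 in FIP1 knockout, and 314, 237 and 225 in FIP2 knockout. Wild type overlapped FIP1 knockout in distal colon, and the other 3 comparisons were without overlap. Only FIP2 knockout distal colon was called, at 1.28 ± 0.34 (edgeR adjusted p = 0.0124), and this was lost without FIP2 knockout distal library 1 (1.10, 0.0586) or wild-type distal library 3 (0.98, 0.0683). FIP1 knockout gave 0.63 ± 0.33 (0.22) in distal and 0.88 ± 0.33 (0.0916) in proximal colon, and FIP2 knockout proximal colon 0.97 ± 0.33 (0.0579). Both proximal values passed the threshold without wild-type proximal library 2, at 1.35 (0.0128) and 1.45 (0.00682). The FIP2 knockout proximal value also passed under DESeq2 (adjusted p = 0.029) and under limma on log2(FPKM + 1) or log2(FPKM + 0.1) (0.0323 and 0.0332). It did not under limma without its filter on low values (0.0757). With no filter on low counts edgeR called Gpx2 in FIP1 knockout distal (0.63, 0.016), FIP1 knockout proximal (0.94, 5.74e-05) and FIP2 knockout proximal colon (1.01, 1.32e-05) too.

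**Figure D3:**
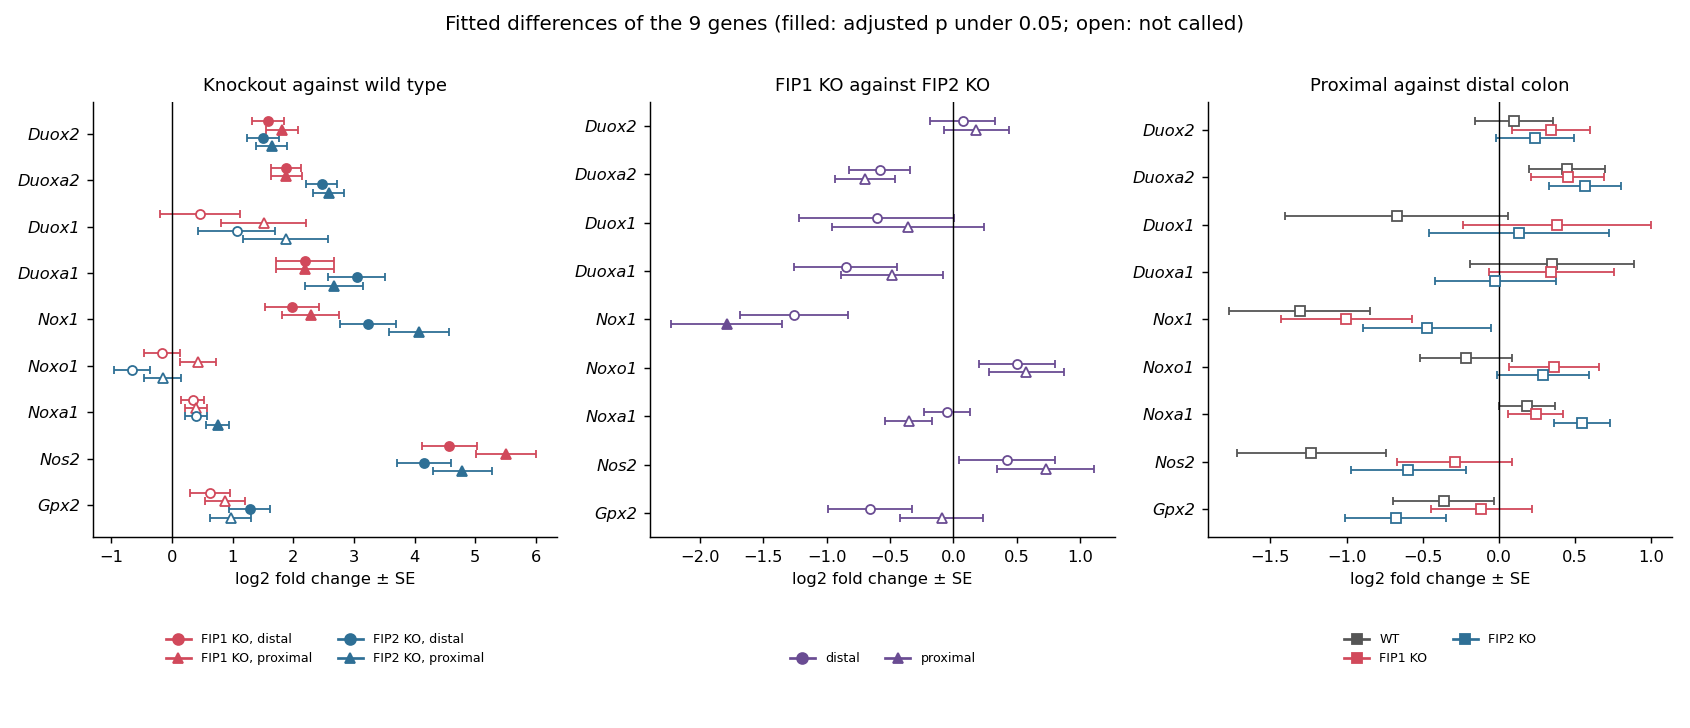
Fitted log2 fold changes ± SE of the 9 genes for knockout against wild type (left), FIP1 against FIP2 knockout (middle) and proximal against distal colon (right); filled symbols were called at an adjusted p under 0.05. Nos2 lies between 4.15 and 5.51 in the left panel, and Nox1 in proximal colon (-1.79) is the one filled symbol of the middle panel.

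Between segments of the same genotype, none of the 9 genes was called in wild type, FIP1 knockout or FIP2 knockout, where edgeR called 16.4%, 6.6% and 9.47% of all genes. DESeq2 called 0, 0 and 1 of the 9, and 2, 1 and 2 had an unadjusted p under 0.05. Nox1 had lower means in proximal colon in all 3 genotypes (-1.31 ± 0.46, -1.001 ± 0.43 and -0.47 ± 0.42; adjusted p = 0.0619, 0.226 and 0.654), and so had Nos2 (-1.23 ± 0.49, -0.29 ± 0.38 and -0.59 ± 0.38; 0.0995, 0.851 and 0.456). Duoxa2 had higher means (0.45 ± 0.25, 0.45 ± 0.24 and 0.57 ± 0.24; 0.25, 0.385 and 0.176). Libraries of the same number deviated together across segments in both knockouts, so the fit with the number as a block is given as well. With it, 5 of the 9 genes were called in FIP2 knockout, where this fit called 19.1% of all genes. Duoxa2 (0.57, adjusted p = 0.0016) and Noxa1 (0.55, 0.00259) were higher in proximal colon, and Gpx2 (-0.65, 0.000946), Nos2 (-0.64, 0.0078) and Nox1 (-0.48, 0.0228) lower. In FIP1 knockout the blocked fit called Nox1 (-1.12, 0.0314) and 9.43% of all genes.

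The size of the knockout effect was not shown to depend on the segment for any of the 9 genes. The interaction was called for 0 of 9 in FIP1 knockout, where 0.644% of all genes were called, and for 0 of 9 in FIP2 knockout (0.328%), with 0 at an unadjusted p under 0.05 in either and 0 called by DESeq2. The largest differences were 1.05 ± 0.96 for Duox1 and 0.94 ± 0.62 for Nos2 in FIP1 knockout, both with a larger rise in proximal colon, and 0.84 ± 0.62 for Nox1 in FIP2 knockout (adjusted p = 0.839, 0.734 and 0.714).

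The order of the 9 genes by level was set out per length. In FPKM, Gpx2 (95.2) and Duox2 (45.2) led in wild-type distal colon, followed by Noxa1 (30.8), Duoxa2 (15.2) and Nox1 (14.99), while Noxo1 (3.84), Nos2 (2.15), Duoxa1 (0.425) and Duox1 (0.0912) were low. Duoxa2 and Nox1 lay within 1 SD of each other there (7.71 and 7.62). In FIP2 knockout distal colon the first 4 were Gpx2 (247), Nox1 (150.2), Duox2 (134) and Duoxa2 (86.7), and Nos2 had reached 39.3. The lengths behind these values are shorter than the deposited gene lengths for 7 of the 9 genes (1414 against 3307 bases for Nox1, 3597 against 6403 for Duox2). With the gene lengths, Nox1 (64.2) had rank 4 in that group, behind Gpx2 (134), Duoxa2 (86.7) and Duox2 (75.5). Duox1 was last under both lengths in all 6 groups.

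Across the 18 libraries the genes with the pattern most like each of 4 members were found by Pearson's r of log2(CPM + 1), as a description. The 18 points share their 6 groups, so r also holds differences between groups. For Duox2 they were the class I histocompatibility genes H2-Q6 (r = 0.95) and H2-Q4 (0.94), the necroptosis kinase Ripk3 (0.95) and the class II peptide loader H2-DMa (0.93). H2-Q6 and H2-Q4 belong to a family of near-identical copies, so how reads were split between them is uncertain. For Nos2 they were the peptide transporter Tap1 (0.96), the interferon-induced GTPase Iigp1 (0.96), the cytokine Tnf (0.95) and the ectoenzyme Cd38 (0.95). For Nox1 they were its overlapping neighbour Cstf2 (0.98), the copper transporter Atp7a (0.95), Jpt2 (0.93) and Far1 (0.93), and for Gpx2 Mapre1 (0.95), Ccdc34 (0.95), Spata6 (0.94) and Jpt2 (0.94). With each group's mean taken out, the r of these named genes was 0.40 to 0.64 for Duox2 and 0.20 to 0.42 for Nos2. It was 0.78 to 0.83 for Nox1 and 0.89 to 0.97 for Gpx2.

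Within the set, Duox2 resembled Nos2 (r = 0.92) and Duoxa2 (0.90), and Nox1 resembled Gpx2 (0.87). After each group's mean was taken out, r was 0.52 for Duox2 with Nos2, 0.43 for Duox2 with Duoxa2 and 0.75 for Nox1 with Gpx2. For Duox2 with Nox1 it went from 0.64 to -0.53, but the groups did not all run this way. Wild-type proximal library 2 had the lowest Duox2 (92.4 CPM) and the highest Nox1 (14.1) of its group. By contrast, FIP1 knockout distal library 3 was the highest of its group in both (526 and 121). FIP2 knockout proximal library 3 was the lowest of its group in both (501 and 107). Nox1 and Noxo1 had negative values both ways (-0.52 and -0.58).

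Genes that work with the 9 were read from 4 lists. Of 15 NADPH oxidase partners and other family members, 13 were tested (Nox3 and Nox4 were not). In FIP1 knockout distal colon 5 were higher and 1 lower, beside 8.84% and 7.47% of all genes, with a median log2 fold change of 0.82. In the other comparisons the medians were 0.25, 0.43 and 0.05 in FIP1 knockout proximal and FIP2 knockout distal and proximal colon. Cybb, the phagocyte oxidase, rose by 2.92 ± 0.57 in FIP1 knockout distal colon (edgeR adjusted p = 0.00169), from a mean of 0.742 to 5.61 CPM, and the blood-cell GTPase Rac2 by 1.79 ± 0.32 (0.000737). Cyba, the membrane subunit shared with Nox1, rose by 0.87 ± 0.22 (0.00916). The scaffold Sh3pxd2a fell by 0.65 (0.0162), which was lost without FIP1 knockout distal library 2 or wild-type distal library 2 (-0.55 and -0.53, 0.0796 and 0.0889). In FIP1 knockout proximal colon edgeR called 0 of 13 (13.6% of all genes), with 1 at an unadjusted p under 0.05. In FIP2 knockout distal colon Cyba rose (0.89 ± 0.22, 0.00788) and Sh3pxd2a fell by 1.02 (0.000623), and in proximal colon Ncf4 rose (1.58 ± 0.47, 0.0307). That call was lost without any one of FIP2 knockout proximal libraries 1, 2 and 3 and wild-type proximal libraries 1 and 3 (1.31 to 1.63, adjusted p between 0.0568 and 0.133), and the value was 2.20 without wild-type proximal library 2. For Rac2 the effect of FIP1 knockout differed between segments (interaction -2.22 ± 0.44, 0.0258), but not without any one of FIP1 knockout distal library 1, FIP1 knockout proximal libraries 1 and 3, wild-type distal libraries 1 and 2 and wild-type proximal library 2 (-1.88 to -2.24, adjusted p of 0.0839 at most). Cybb, Rac2 and Ncf4 are genes of white blood cells. The 7 B and plasma cell markers summed to 271 to 428 CPM in FIP1 knockout distal colon against 6.27 to 36.1 in wild type there, and 37.5 to 49.8 in FIP2 knockout distal colon. In proximal colon they summed to 6.45 to 17.03 in wild type, 29.6 to 288 in FIP1 knockout and 267 to 400.1 in FIP2 knockout. Sums of macrophage, neutrophil and T cell markers are given above. The part of these cells in the values above was not tested.

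Genes that supply nitric oxide synthase moved in both directions: 3 of 15 tested were higher in each of the 4 comparisons, and 1, 3, 1 and 1 lower. The medians were 0.05, 0.02, -0.09 and -0.03, and 16.3%, 13.6%, 18.5% and 14.7% of all genes were called in either direction. Gch1, which makes the first step of the cofactor tetrahydrobiopterin, rose by 0.84 ± 0.17 and 1.01 ± 0.17 in FIP1 knockout distal and proximal colon and by 1.29 ± 0.17 and 0.82 ± 0.17 in FIP2 knockout (edgeR adjusted p at most 0.00401). Slc7a1, an arginine importer, rose by 0.84, 0.73, 0.83 and 1.06 in the same order; the call in FIP1 knockout proximal colon was lost without wild-type proximal library 3 (0.63, 0.0601). Ddah1, which breaks down inhibitors of nitric oxide synthase, rose by 1.83, 1.07, 2.18 and 0.97. Its FIP2 knockout effect differed between segments (interaction -1.21 ± 0.21, 0.0129), although not without FIP2 knockout proximal library 3 (-1.12, 0.052). Qdpr, which regenerates the cofactor, fell by 0.79 and 0.55 in FIP1 knockout distal and proximal colon and by 0.71 and 0.73 in FIP2 knockout. In FIP1 knockout proximal colon its call was lost without FIP1 knockout library 1 or 3 or wild-type library 1 or 2 of that segment (-0.45 to -0.55, adjusted p between 0.0543 and 0.131). Slc7a2, another importer of basic amino acids, fell by 3.02 in FIP1 knockout proximal colon (0.0176), from 2.22 to 0.253 CPM. It no longer passed when FIP1 knockout proximal library 1 or 2 was left out (-3.02 and -2.76, 0.061 and 0.0613), or wild-type proximal library 2 (-2.08, 0.107). Arg2, an arginase that competes for arginine, fell by 2.63 in FIP1 knockout proximal colon (adjusted p = 6.14e-05), from 27.9 to 4.57 CPM, and was lower there than in FIP2 knockout by -1.85 ± 0.35 (0.00652).

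Of 29 tested enzymes that remove peroxide and superoxide, 2 were higher and 1 lower in FIP1 knockout distal, 0 and 6 in FIP1 knockout proximal, 5 and 1 in FIP2 knockout distal, and 1 and 7 in FIP2 knockout proximal colon, with medians of -0.05, -0.02, 0.02 and -0.09, beside 16.3%, 13.6%, 18.5% and 14.7% of all genes called in either direction. Lpo, a peroxidase of mucosal secretions that uses hydrogen peroxide, rose by 4.004 ± 0.69 (edgeR adjusted p = 0.00062) and 4.61 ± 0.70 (0.000189) in distal colon of FIP1 and FIP2 knockout, from a wild-type mean of 2.12 CPM, and by 1.95 ± 0.59 (0.0312) in proximal colon of FIP2 knockout, from 24.3 CPM. FIP2 knockout library 1 stood apart in both segments, at 119 CPM beside 14.8 and 21.9 in distal and 173 beside 40.2 and 69.6 in proximal colon. Without it Lpo was 3.10 (0.000357) in distal colon and no longer called in proximal colon (1.19, 0.207), where the call was also lost without wild-type library 1, 2 or 3 (2.24, 1.87 and 1.80, adjusted p = 0.0509, 0.0643 and 0.112). In FIP2 knockout distal colon the glutathione reductase Gsr (0.80 ± 0.15, 0.000981), the sulfiredoxin Srxn1 (0.69), Prdx1 (0.82) and thioredoxin Txn1 (0.78) also rose. Of these calls, that of Srxn1 did not hold with wild-type distal library 2 left out (0.50, adjusted p = 0.0583), that of Prdx1 without FIP2 knockout library 1 or 2 or wild-type library 3 (0.65 to 0.87, 0.0564 to 0.142), and that of Txn1 without any 1 of the 6 libraries but FIP2 knockout library 1 (0.62 to 0.86, 0.0523 to 0.124). Catalase (Cat) fell in proximal colon by 1.23 (1.09e-05) and 1.08 (6.33e-05) in FIP1 and FIP2 knockout, the glutathione synthesis subunit Gclm by 0.93 and 0.85, and the quinone reductase Nqo1 by 1.13 and 1.12. The superoxide dismutases Sod1 (-0.68 and -0.59) and Sod2 (-0.42 and -0.54) and the heme oxygenase Hmox1 (-1.15 and -1.81) fell there as well. In FIP1 knockout the calls of Sod1 and Sod2 were lost without FIP1 knockout proximal library 1, 2 or 3 or wild-type proximal library 2 (-0.47 to -0.69 and -0.26 to -0.43), and that of Hmox1 without FIP1 knockout library 1 or 3 or wild-type library 1 or 2 (-0.93 to -1.10). In FIP2 knockout the call of Sod1 was lost without FIP2 knockout library 1 or 2 or wild-type library 1 or 2 (-0.38 to -0.61), and that of Sod2 without FIP2 knockout library 2 (-0.50, adjusted p = 0.0514). For Cat the effect of FIP2 knockout differed between segments (interaction -0.94 ± 0.20, 0.0484), a call lost without any 1 of the 12 libraries but FIP2 knockout distal library 1 (-0.83 to -1.02, 0.0573 to 0.156). The wild-type levels of Cat, Gclm and Nqo1 were higher in proximal than in distal colon (Nqo1 by 1.76, Cat by 1.02, Gclm by 1.04), where 11 of the 29 were called higher and 1 lower, beside 8.96% and 7.39% of all genes.

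**Figure D4:**
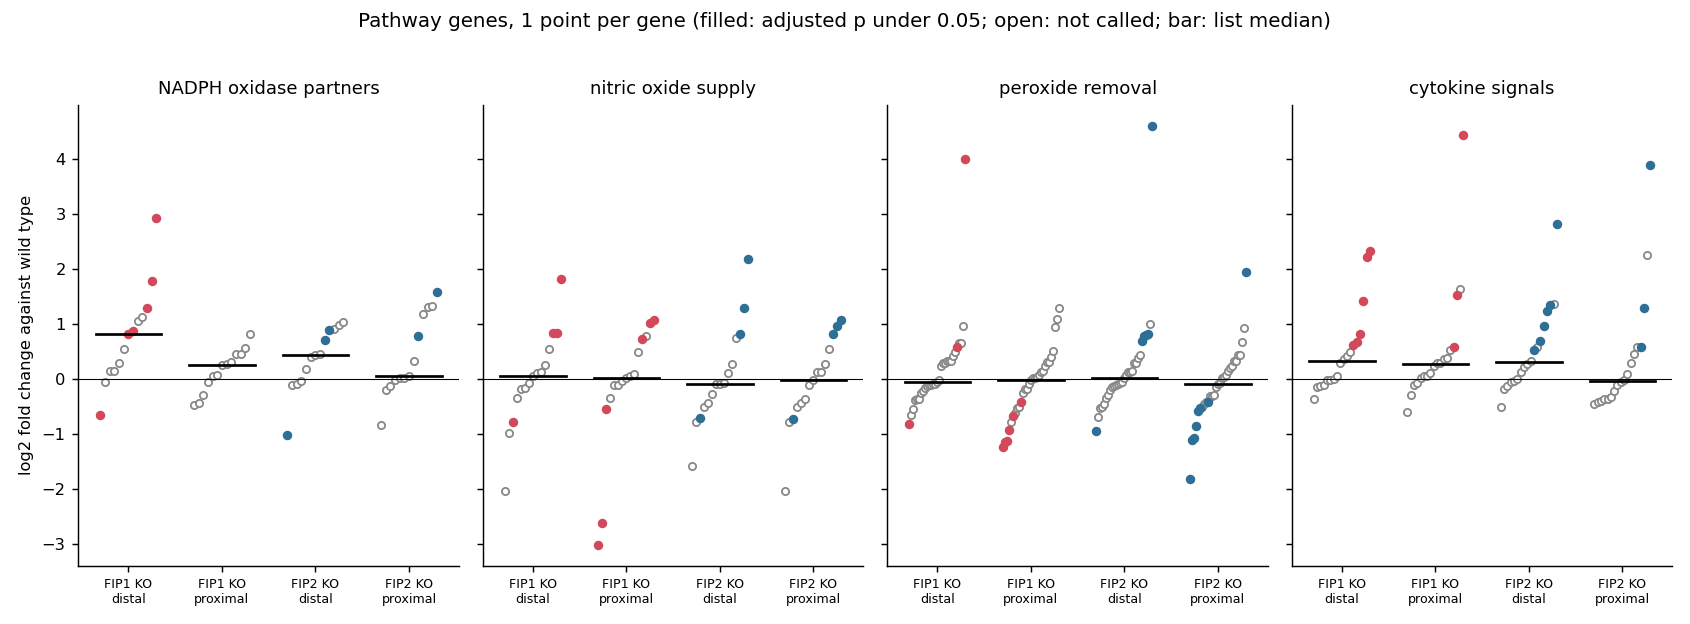
Log2 fold change against wild type of each tested gene of the 4 lists (13, 15, 29 and 18 genes), by knockout and segment; filled points were called, and bars are list medians. Called points lie above 0 for cytokine signals and on both sides for nitric oxide supply and peroxide removal.

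Cytokines and signal transducers known to act on Duox2 and Nos2 gave 6, 3, 6 and 3 higher and 0 lower of 18 tested in FIP1 knockout distal and proximal and FIP2 knockout distal and proximal colon. The medians were 0.33, 0.27, 0.30 and -0.04, and 8.84%, 6.7%, 9.13% and 7.6% of all genes were called higher. Tnf, a macrophage and T cell cytokine, rose by 2.33 ± 0.33, 4.43 ± 0.39, 2.82 ± 0.33 and 3.89 ± 0.39 (edgeR adjusted p at most 8.84e-05), from wild-type means of 1.26 and 0.477 CPM. Stat3, which carries signals of several interleukins, rose by 0.61, 0.58, 0.69 and 0.58 in the same order. Its call was lost without FIP1 knockout library 3 or wild-type library 2 in distal colon of FIP1 knockout (0.56 and 0.54, adjusted p = 0.0542 and 0.0576), without FIP1 knockout or wild-type library 2 in proximal colon (0.51 and 0.45, 0.066 and 0.0635), and without FIP2 knockout library 1 in proximal colon of FIP2 knockout (0.50, 0.076). Nfkbiz, a nuclear co-regulator of NF-kB, rose by 0.68 and 1.34 in FIP1 and FIP2 knockout distal colon, and the endotoxin receptor Tlr4 by 0.82 and 0.96 in distal colon of FIP1 and FIP2 knockout. In FIP1 knockout the call of Nfkbiz was lost without any one of FIP1 knockout distal libraries 1, 2 and 3 and wild-type distal library 2 (0.53 to 0.71, adjusted p between 0.0543 and 0.14), and that of Tlr4 without FIP1 knockout or wild-type distal library 2 (0.70 and 0.73, 0.0617 and 0.0557). A further 7 listed genes did not pass the filter: Ifng, Il22, Il17a, Il17f, Il17c, Il6 and Osm. Ifng, the interferon made by T cells and natural killer cells, had 0 counts in the 6 wild-type libraries and 4 to 11 counts in each knockout group.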

How the data were processed

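Counts per gene and FPKM values of 18 libraries were deposited. Per the submitters' processing notes, STAR 2.5, TopHat, HTSeq 0.6.1 and DESeq2 were used with builds GRCm38 and mm10; whether counting used strand is not given in the sources used here. The deposited FPKM values imply 1 length per gene in all libraries (30034 of 30034 genes checked, relative tolerance 1e-04).

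Counts were fitted in R 4.3.3 with edgeR 4.0.16 (TMM, filterByExpr, 17692 genes, 1 quasi-likelihood fit to 18 libraries, 11 contrasts); SE is the absolute log2 fold change over the root of F. With 3 libraries a group the test borrows spread across genes. Alternatives were relative log expression factors, no filter, DESeq2 1.42.0, only the libraries compared, a replicate block, limma 3.58.1 on the deposited FPKM on a log2 scale (pseudocounts 1 and 0.1, mean FPKM of at least 0.5, and no filter), no mitochondrial genes, and each library left out. Leaving out libraries for list genes and overlapping neighbours, and ratios with the deposited gene lengths, were added after the values had been seen. The procedure was tested on simulated data.

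Named are the 9 genes, up to 4 of each of 4 lists by adjusted p, and the 4 genes most like Duox2, Nox1, Nos2 and Gpx2 among those with a mean of at least 1 CPM and no predicted symbol; Cstf2, Tbl3 and Entpd8 were added because they share exon bases with members. Some list genes that the rule names are not reported here. The members and lists were chosen with earlier results of these data known. Deviations from group means correlated between same-numbered distal and proximal libraries at 0.213, 0.22 and 0.121 in FIP1 knockout and 0.465, 0.308 and 0.33 in FIP2 knockout over all tested genes, and these were treated as paired; in wild type 1 of 3 was negative (-0.104). No libraries of a group were identical. Exon overlaps were read from GENCODE M21. Figures were drawn with matplotlib.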

Additional observations from a re-analysis of the deposited data

How the results depend on the processing

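None of the 1561 refitted values of the 9 genes reversed a called direction: 1511 kept their side of the threshold, 40 passed it only in the alternative and 10 no longer passed it; 60 refits changed sign where neither value was called. The 22 knockout rises were refitted 132 times without 1 library and 198 times under another method, and 2 calls were lost in each kind, both of Gpx2 in FIP2 knockout distal colon in the first and both under the replicate block in the second: Duoxa1 (2.13, adjusted p = 0.0575) and Nox1 (2.24, 0.0931) in FIP1 knockout proximal colon, where the number of genes called went from 5 to 3. Deviations of same-numbered knockout and wild-type libraries did not correlate throughout (-0.34 to 0.25), so those numbers are not a pairing. The limma fits on FPKM moved the median of all genes by up to 0.19, and put Duoxa1 at 1.12 rather than 2.19 in FIP1 knockout distal colon because the pseudocount weighs on low values.

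For FIP1 against FIP2 knockout, the number of the 9 genes called was 2 in distal colon with only the compared libraries, 3 with no filter on low counts and 1 with the replicate block, against 0. In proximal colon it was 0 under limma with a pseudocount of 0.1 or no filter and 3 with no filter on low counts, against 1. Between segments, where the reported count was 0, FIP2 knockout gave 1 with DESeq2, 2 with only the compared libraries and 3 with no filter on low counts. With the replicate block it gave 5, beside 19.1% of all genes. FIP1 knockout gave 1 with no filter and 1 with the replicate block (9.43% of all genes). Wild type gave 2 with no filter and 2 with the block (Nox1 at -1.26 and Nos2 at -1.35). Leaving out 1 library gave ranges of 0 to 1 for FIP1 against FIP2 knockout in proximal colon, 0 to 1 for segments of wild type, 5 to 6 for FIP1 knockout proximal, 5 to 6 for FIP2 knockout distal and 6 to 7 for FIP2 knockout proximal colon against wild type. The cause of these differences was not tested. Genes with few counts, Duox1 (11 to 60 per group) and Duoxa1 (25 to 281), carry the widest errors.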
